A study of Mus musculus with 12 samples.

Results

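The interferon regulatory factor (IRF) genes were followed through 4 dendritic cell populations of mouse bone marrow. Of the 8 IRF genes listed for the family, 7 (Irf1, Irf2, Irf3, Irf4, Irf5, Irf7 and Irf9) were analysed out of 21754 genes in the count table, and all 7 had a mean count of at least 1 per library; 1 listed gene was not analysed here. The populations came from untreated wild-type C57BL/6 mice, an inbred laboratory strain. The labels do not state their age, and the study's methods give adult mice of both sexes for its experiments in general. The populations were Siglec-H-negative pre-cDCs, which give rise to conventional dendritic cells (cDCs), CCR9lo-B220lo (lo-lo) and CCR9lo-B220hi (lo-hi) precursors within the Siglec-H-positive fraction, and CCR9hi B220hi plasmacytoid dendritic cells (pDCs). Each population was represented by 3 libraries of SCRB-seq, a method that counts tags from the 3' ends of transcripts, so levels are compared for 1 gene between libraries and not between genes. Library totals ranged from 1801463 to 5995971 counts, and levels are given as CPM (counts per 1000000 counts of the library) after TMM scaling, which corrects for library size and composition.

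IRF proteins are transcription factors that share a DNA-binding domain and bind related motifs in the promoters of interferons and of the genes that interferons induce. IRF3 and IRF7 are activated by kinases below nucleic acid sensors and switch on type I interferon genes, IRF9 is the DNA-binding part of the complex ISGF3 below the interferon receptor, and IRF1 and IRF2 act as an activator and a repressor on overlapping sites. IRF4 and IRF5 serve in cell identity and in Toll-like receptor signalling, and pDCs are known for a high constitutive level of IRF7, the factor behind their rapid type I interferon response.

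Which well holds which population had to be settled before any level could be read. The wells were named here by matching the rank order of transcription factors in each well to the source data that the study gives for its named samples. With 28 transcription factors, each of the 12 named samples had 1 well in which 0 of 378 gene pairs were ordered the other way, and every other well had at least 7 such pairs. With the IRF genes left out, 22 factors gave the same 12 assignments. The next well then had at least 3 such pairs. With every gene of the family and of the pathway and marker lists below left out, 15 factors still gave them, but the next well had as few as 1 such pair of 105. This naming put 8 of the 12 wells in another population than the deposited sample labels do, and 4 wells in the same one. All values below follow the matched wells unless the labels are named, and the results under the labels are given as well.

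The summed level of 8 pDC markers, among them the gated Siglech and Ccr9, ranged from 1680 to 2640 CPM in pre-cDCs, 5940 to 6140 in lo-lo cells, 9610 to 9670 in lo-hi cells and 10200 to 11500 in pDCs. The 8 cDC markers stood at 709 to 1100 CPM in pre-cDCs, 354 to 455 in lo-lo cells, 322 to 349 in lo-hi cells and 296 to 380 in pDCs. These lists hold factors that the match itself used, 3 of the pDC list (Tcf4, Spib and Runx2) and 4 of the cDC list (Zbtb46, Batf3, Id2 and Spi1). Without them the 5 remaining pDC markers still ran from between 1050 and 1540 CPM in pre-cDCs to 3590 to 3920 in lo-lo cells, 6030 to 6490 in lo-hi cells and 7000 to 7500 in pDCs. The 4 remaining cDC markers stood at 517 to 846 CPM in pre-cDCs, 267 to 349 in lo-lo cells, 263 to 304 in lo-hi cells and 262 to 333 in pDCs. They set only the pre-cDCs apart. Itgax, 1 of these 4, was instead highest in lo-lo cells (104 CPM on average, against 58.3 in pre-cDCs). Transcripts of other cell types were present too: 9 granulocyte genes summed to between 9890 and 20700 CPM in lo-hi cells and between 3260 and 6620 in pDCs, 7 erythroid genes to between 4690 and 18400 across all libraries, and 5 mast cell or basophil genes to between 112 and 841 in pre-cDCs and between 57.3 and 171 in pDCs. The 5 monocyte genes summed to 3240 to 3620 CPM in pre-cDCs, 2470 to 2610 in lo-lo cells, 2690 to 2820 in lo-hi cells and 2620 to 3370 in pDCs. Of these, Ccr2, F13a1, Ms4a6c and Fn1 were highest in pre-cDCs, whereas Ly6c2 was highest in pDCs. The part of all these transcripts in the IRF levels was not tested, and in sorted bulk samples fewer cells of a type and less RNA per cell cannot be told apart. The libraries with number 3 in the match stood apart: in all 4 populations they held between 68.6 and 154 CPM of 4 summed Y-linked genes and 26.6 to 58.4 CPM of Xist, the transcript of the inactive X chromosome, against 2.21 to 7.93 and 218 to 596 CPM in numbers 1 and 2.

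The largest changes of the family were those of Irf1 and Irf7, which were highest in pDCs, and of Irf4, which was highest in pre-cDCs. Irf5 was lowest in lo-lo cells and higher on either side. Across the 4 populations, 4 of the 7 genes passed the test (Irf1, Irf4, Irf5 and Irf7; edgeR quasi-likelihood F test with Benjamini-Hochberg adjustment over 15293 genes, adjusted p under 0.01), beside 19.9% of all genes tested. Irf2, Irf3 and Irf9 did not pass.

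**Figure D1:**
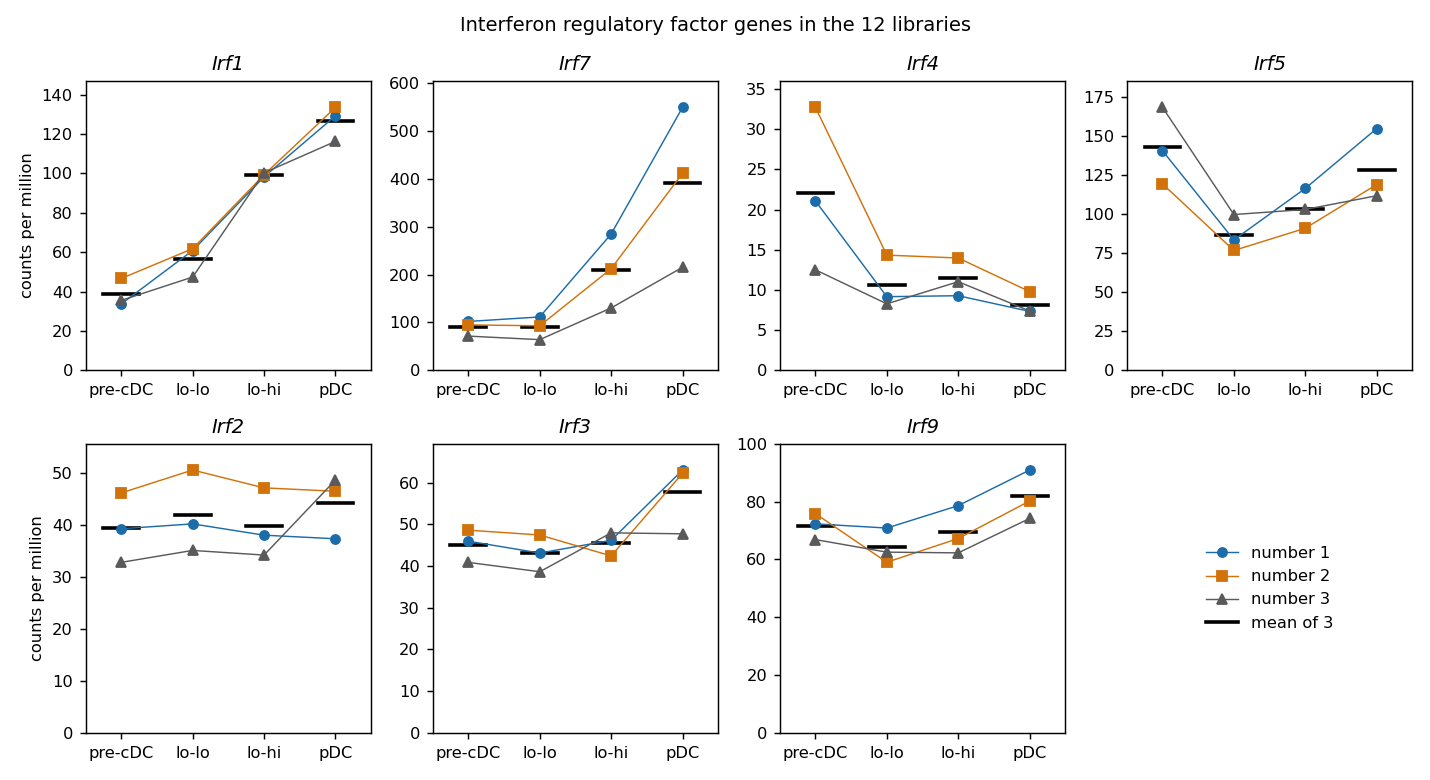
TMM-scaled CPM (vertical axis, linear, from 0) of the 7 IRF genes in the 4 populations, with 1 symbol and line for each replicate number of the match and a black bar at the mean of 3 libraries. The 3 lines of Irf1 rise at each step, with pre-cDC and lo-lo libraries as close as 46.6 and 47.3. The 3 lines of Irf7 rise from lo-lo cells to pDCs at different heights, and the lines of Irf2 stay between 32.8 and 50.5.

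Irf1 encodes an activator that is induced by interferons and acts on antigen presentation and antiviral genes. Its level in libraries 1, 2 and 3 was 33.7, 46.6 and 35.5 CPM in pre-cDCs, 60.8, 61.8 and 47.3 in lo-lo cells, 98.3, 99.3 and 100.3 in lo-hi cells, and 129, 134 and 116 in pDCs. The ranges of the 4 populations did not overlap, but the highest pre-cDC library (46.6) and the lowest lo-lo library (47.3) were close. How many of all genes have separate ranges was not counted, so the separation alone carries little weight. The mean rose from 38.6 ± 7.01 (SD, n = 3) in pre-cDCs to 126 ± 9.02 in pDCs. The 3 lo-hi libraries were the most alike, with a coefficient of variation of 1.02%, on 445, 192 and 182 counts. Random counting alone would give more spread than that, so it is not read as a trait of lo-hi cells.

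Between pDCs and pre-cDCs the difference of Irf1 was 1.73 on the log2 scale (SE 0.169, a 3.31-fold higher level, edgeR adjusted p = 1.005e-08), and it was higher in 3 of 3 pairs of libraries with the same number. The steps in between were unequal. The largest was from lo-lo to lo-hi cells, at 0.81 (SE 0.163, 1.76-fold, edgeR adjusted p = 0.001412), whereas lo-lo minus pre-cDC gave 0.56 (95% interval 0.21 to 0.91, edgeR adjusted p = 0.04937) and pDC minus lo-hi 0.35 (0.02 to 0.68, edgeR adjusted p = 0.3921). Whether the steps differ from each other was not tested. The lo-lo to lo-hi call was lost without lo-hi library 1 (edgeR adjusted p = 0.0115), without lo-lo library 3 (0.0229), and with only numbers 1 and 2 (0.0309), where the difference was 0.80, 0.69 and 0.68.

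Irf7, the factor that amplifies type I interferon production, showed the widest range of the family. In libraries 1, 2 and 3 it stood at 102, 94.7 and 71.3 CPM in pre-cDCs, 111, 92.8 and 63.9 in lo-lo cells, 285, 212 and 130 in lo-hi cells, and 549, 412 and 215 in pDCs. Library 1 was highest and library 3 lowest in every population, so that the means of 209 ± 77.4 CPM (SD, n = 3) in lo-hi cells and 392 ± 168 in pDCs carried wide errors and the 2 ranges overlapped. Pre-cDCs (89.3 ± 16.0) and lo-lo cells (89.3 ± 23.9) did not differ beyond their spread.

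Irf7 was 2.14 on the log2 scale higher in pDCs than in pre-cDCs (SE 0.393, 4.41-fold, edgeR adjusted p = 0.002067) and 2.14 higher than in lo-lo cells (SE 0.391, 4.41-fold, 0.002934). The single steps from lo-lo to lo-hi (1.24, 95% interval 0.37 to 2.10, edgeR adjusted p = 0.08743) and from lo-hi to pDC (0.90, 0.06 to 1.75, 0.3945) did not pass. Read within each number, however, both steps went the same way each time: the lo-hi to lo-lo ratio was 2.56, 2.29 and 2.04 in numbers 1, 2 and 3, and the pDC to lo-hi ratio was 1.93, 1.94 and 1.65. With the number as a block, the lo-lo to lo-hi difference was 1.20 (SE 0.152, edgeR adjusted p = 2.784e-07), the lo-hi to pDC difference 0.88 (SE 0.147, 0.0001013) and the lo-hi minus pre-cDC difference 1.18 (SE 0.154, 1.354e-07), and all 3 passed. Without the block, the pDC minus pre-cDC call was lost when pre-cDC library 2 or 3 was left out (edgeR adjusted p = 0.0133 and 0.0216), and the pDC minus lo-lo call without lo-lo library 2 or 3 or pDC library 1 or 2 (0.0112 to 0.0162).

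Irf4 ran the other way. This gene, which acts in the cDC2 branch of conventional dendritic cells and in activated lymphocytes, had few counts, from 17 to 72 per library. Its level in libraries 1, 2 and 3 was 21.1, 32.7 and 12.5 CPM in pre-cDCs, 9.16, 14.3 and 8.26 in lo-lo cells, 9.28, 14.0 and 11.02 in lo-hi cells, and 7.32, 9.79 and 7.38 in pDCs. Only the pre-cDC and pDC ranges were separate, and pre-cDC library 3 lay among the lo-lo and lo-hi libraries. From pre-cDCs to pDCs Irf4 fell by 1.41 on the log2 scale (SE 0.296, edgeR adjusted p = 0.0006254), and it was lower in 3 of 3 numbers. The difference between lo-lo cells and pre-cDCs was -1.05 (SE 0.287, edgeR adjusted p = 0.02779) and that between lo-hi cells and pre-cDCs -0.96 (SE 0.298, 0.02375). With the number as a block these were -1.03 (SE 0.218, edgeR adjusted p = 0.001188) and -0.94 (SE 0.228, 0.001738) and passed. The call across the 4 populations was lost without pre-cDC library 1 or 2 (edgeR adjusted p = 0.01781 and 0.02435).

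Irf5, which works below Toll-like receptors on inflammatory cytokine genes, was 141, 120 and 169 CPM in pre-cDC libraries 1, 2 and 3, 83.6, 76.8 and 99.8 in lo-lo cells, 117, 91.1 and 103 in lo-hi cells, and 155, 119 and 112 in pDCs. The lo-lo libraries lay below all pre-cDC and all pDC libraries, and the pre-cDC and pDC ranges overlapped. The difference between lo-lo cells and pre-cDCs, -0.72 on the log2 scale (SE 0.172, 95% interval -1.08 to -0.37), missed the threshold by a narrow margin (edgeR adjusted p = 0.0101). It passed with the number as a block (-0.72, SE 0.153, edgeR adjusted p = 0.00128), with DESeq2 (-0.75, adjusted p = 0.00325) and under 4 further settings. The pDC minus lo-lo difference was 0.57 (SE 0.172, edgeR adjusted p = 0.01744) and passed with the block (0.58, SE 0.153, 0.004033). The call of Irf5 across the 4 populations (edgeR adjusted p = 0.008061) was the least stable of the 4: it was lost without any 1 of 8 libraries, with an adjusted p of up to 0.04497, and with only numbers 1 and 2 (0.01932).

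Irf3, the constitutively expressed partner of IRF7 in interferon induction, was 46.0, 48.6 and 40.9 CPM in pre-cDC libraries 1, 2 and 3, 43.1, 47.4 and 38.6 in lo-lo cells, 46.2, 42.4 and 47.9 in lo-hi cells, and 63.0, 62.2 and 47.7 in pDCs. Libraries 1 and 2 of the pDCs were above all others and library 3 was not. The pDC minus pre-cDC difference was 0.37 on the log2 scale (95% interval 0.03 to 0.70, edgeR adjusted p = 0.09145), and the test across populations gave an adjusted p of 0.1311.

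Irf9, the DNA-binding subunit of ISGF3, ranged from 66.9 to 75.9 CPM in pre-cDCs, 59.0 to 70.9 in lo-lo cells, 62.3 to 78.6 in lo-hi cells and 74.2 to 90.9 in pDCs. All 3 pDC libraries were above all 3 lo-lo libraries, but the difference of 0.36 (95% interval 0.03 to 0.68, edgeR adjusted p = 0.1114) did not pass. Irf2, the repressor, ranged from 32.8 to 46.1, 35.1 to 50.5, 34.2 to 47.1 and 37.3 to 48.6 CPM in the same order, and each pair of populations overlapped. Its pDC minus pre-cDC difference was 0.16 with an interval of -0.22 to 0.54 (edgeR adjusted p = 0.557), so a change of more than 0.54 in either direction lay outside the interval.

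Counted by comparison, 0 of the 7 genes passed edgeR's test between lo-lo cells and pre-cDCs (3 with an unadjusted p under 0.05, and 1 by DESeq2), where 3.16% of all genes did. Between lo-hi and lo-lo cells 1 gene (Irf1) passed, beside 5.17% of all genes. Between pDCs and lo-hi cells it was 0 by edgeR (3 with an unadjusted p under 0.05) and 0 by DESeq2, beside 0.961%. Between pDCs and pre-cDCs 3 genes passed (Irf1, Irf4 and Irf7), beside 21.7%, between pDCs and lo-lo cells 2 (Irf1 and Irf7), beside 13.8%, and between lo-hi cells and pre-cDCs 1 (Irf1), beside 13.1%. These comparisons share libraries, so their counts are not separate evidence.

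With the replicate number as a block, the same 4 genes passed across the populations, beside 24.4% of all genes. The counts were then 2 for lo-lo minus pre-cDC (Irf4 and Irf5, beside 4.86%), 2 for lo-hi minus lo-lo (Irf1 and Irf7, beside 6.95%) and 1 for pDC minus lo-hi (Irf7, beside 2.26%). They were 3 for pDC minus pre-cDC (Irf1, Irf4 and Irf7, beside 25.4%), 3 for pDC minus lo-lo (Irf1, Irf5 and Irf7, beside 17.0%) and 3 for lo-hi minus pre-cDC (Irf1, Irf4 and Irf7, beside 16.2%). Over all genes the block raised the calls between lo-lo cells and pre-cDCs from 483 to 743 and between pDCs and lo-hi cells from 147 to 346.

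**Figure D2:**
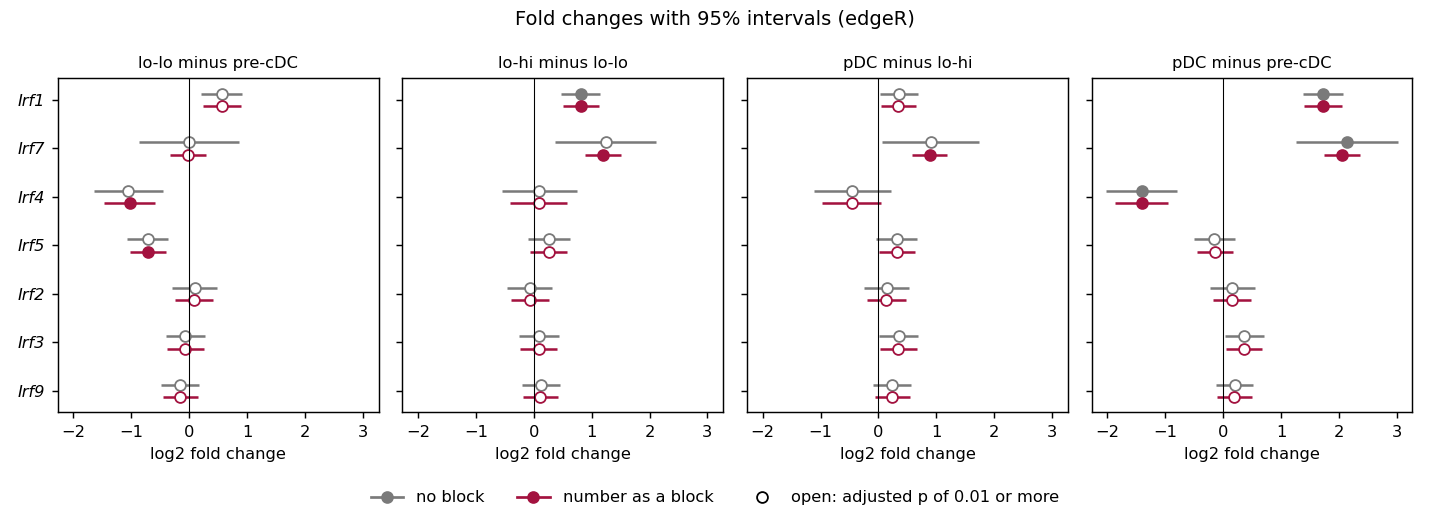
Log2 fold change (horizontal axis) of each IRF gene in 4 comparisons, with 95% intervals from edgeR, in grey without and in red with the replicate number as a block; filled points have an adjusted p under 0.01. The intervals of Irf7 are much narrower with the block (SE 0.152 against 0.386 for lo-hi minus lo-lo), and those of Irf2 and Irf9 cross 0 in all 4 panels.

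Under the deposited labels no member passed. The mean of Irf1 was then 64.3 ± 32.4 CPM (SD, n = 3) in the libraries labelled pre-cDC, 79.2 ± 44.0 in those labelled lo-lo, 89.5 ± 49.8 in those labelled lo-hi and 88.0 ± 36.1 in those labelled pDC, and that of Irf7 was 166 ± 103, 246 ± 263, 232 ± 171 and 136 ± 75.9. In edgeR's test by label, 0 of the 7 genes and 0 of 15293 genes passed in any comparison (0 of the 7 with an unadjusted p under 0.05; DESeq2 was not run by label). In the 4 wells on which the match and the labels agree, 1 for each population, Irf1 was 33.7, 61.8, 99.3 and 116 CPM from pre-cDC to pDC, Irf7 was 102, 92.8, 212 and 215, Irf4 was 21.1, 14.3, 14.0 and 7.38, and Irf5 was 141, 76.8, 91.1 and 112. These 4 wells have no replicate, and they are among the wells that gave the order under the match. Irf1 was lowest and Irf4 highest in the pre-cDC well, whereas Irf7 was lowest in the lo-lo well. Under the match the Irf1 ranges of all populations were separate, as were the Irf4 ranges of pre-cDCs and pDCs. Any choice of 1 well for each population would keep those orders, so the 4 wells are not separate evidence for them.

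**Figure D3:**
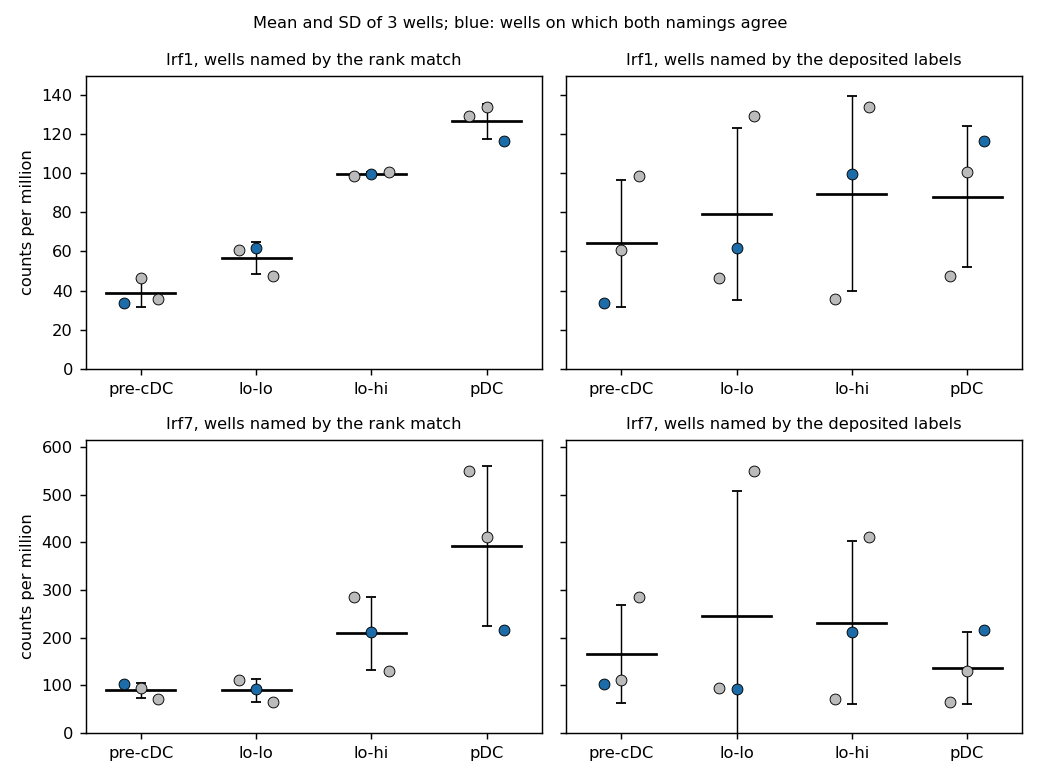
CPM (vertical axis, from 0) of Irf1 and Irf7 in the 12 wells, grouped by the rank match at left and by the deposited labels at right; bars are means and whiskers SD of 3 wells, and blue points are the 4 wells with the same population under both namings. The wells of Irf1 do not overlap between populations at left, though pre-cDC and lo-lo wells come as close as 46.6 and 47.3. At right they spread from 33.7 to 134 across the labels.

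Promoters of 4 members are shown to set the gene that moved upward beside its relatives: Irf1 and Irf7 (higher in pDCs), Irf4 (lower) and Irf2 (no call). The sequences are from RefSeq on GRCm38.p6, 250 bases before to 50 after an annotated start, and the capitals mark matches to the GAS core TTCNNNGAA, the letters of a STAT binding site, or to the ISRE core, a pair of GAAA separated by any 2 bases, the letters of an IRF and ISGF3 binding site, on either strand. All 7 members had at least 1 window, 9 in all.

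Irf1, chr11:53769764-53770063, plus strand: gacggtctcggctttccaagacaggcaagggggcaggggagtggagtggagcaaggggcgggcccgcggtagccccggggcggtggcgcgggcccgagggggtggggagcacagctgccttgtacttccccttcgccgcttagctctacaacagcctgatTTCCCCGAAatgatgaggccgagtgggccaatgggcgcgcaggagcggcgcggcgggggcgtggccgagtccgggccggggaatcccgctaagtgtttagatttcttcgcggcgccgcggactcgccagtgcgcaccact
Irf7, chr7:141266375-141266674, minus strand: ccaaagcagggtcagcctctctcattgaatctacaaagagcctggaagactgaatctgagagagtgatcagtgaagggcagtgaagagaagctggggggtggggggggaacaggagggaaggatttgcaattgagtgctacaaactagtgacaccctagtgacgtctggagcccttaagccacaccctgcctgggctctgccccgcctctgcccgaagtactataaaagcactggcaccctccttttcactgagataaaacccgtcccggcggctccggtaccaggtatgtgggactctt
Irf4, chr13:30748983-30749282, plus strand: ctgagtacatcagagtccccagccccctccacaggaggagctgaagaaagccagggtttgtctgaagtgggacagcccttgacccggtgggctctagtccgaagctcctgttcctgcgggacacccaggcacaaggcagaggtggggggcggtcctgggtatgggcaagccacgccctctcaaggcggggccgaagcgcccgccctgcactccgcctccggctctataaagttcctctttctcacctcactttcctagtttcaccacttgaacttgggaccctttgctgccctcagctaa
Irf2, chr8:46739495-46739794, plus strand: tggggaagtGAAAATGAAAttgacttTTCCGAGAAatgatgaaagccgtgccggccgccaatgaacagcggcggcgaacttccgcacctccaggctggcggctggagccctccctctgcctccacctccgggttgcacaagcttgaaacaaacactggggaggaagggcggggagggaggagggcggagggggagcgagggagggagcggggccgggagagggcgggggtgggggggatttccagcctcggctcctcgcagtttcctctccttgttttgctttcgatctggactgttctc

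The Irf1 window held a GAS core whose first base lies 90 bases before the start, and the Irf2 window an ISRE core and a GAS core at 241 and 224 bases before it. The windows of Irf3, Irf4, Irf5, Irf7 and Irf9 and a second window of Irf1 held neither, which says only that these letters are not in these windows. Over 32851 promoter windows of the same length, 3.44% held an ISRE core and 8.3% a GAS core. The member with both motifs, Irf2, was the one whose test across populations gave the highest adjusted p (0.8881, edgeR), and the member with the widest range, Irf7, had neither. Whether the motifs bear on the levels was not tested.

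The genes lie on chromosomes 11 (Irf1, 53770014 to 53778374), 8 (Irf2, 46739732 to 46847458), 7 (Irf3, 44997648 to 45002848, and Irf7, 141262706 to 141266481), 13 (Irf4, 30749226 to 30766976), 6 (Irf5, 29526625 to 29541871) and 14 (Irf9, 55603571 to 55610030), all protein-coding in GENCODE vM21 on GRCm38. Some of their counts are uncertain because gene models overlap and the strand setting of the counting is not given in the sources used here. On the other strand, Irf1 shares 907 bases with Gm17334 (618 counts in all) and Irf3 its first 1065 bases with Bcl2l12 (555 counts). Irf5 shares its last 1045 bases with Tnpo3 (1742 counts) and Irf7 its last 45 bases with Phrf1 (880 counts), also on the other strand. Irf9 shares 123 bases at its start with Rnf31 on the same strand, where no strand setting can tell them apart. The overlaps of Irf5 and Irf7 lie at the 3' ends of these genes, where the tags of SCRB-seq fall, and those of Irf3 and Irf9 do not.

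The pathway around the family was read from 4 gene lists, in pDCs against pre-cDCs, where 21.7% of all genes tested passed and the median log2 difference of all genes was 0.05. Of 17 measured sensors and kinases upstream of the IRFs, 2 rose and 1 fell, with a median of 0.44, a smaller share than the 21.7% of all genes. Tlr7, the endosomal receptor for single-stranded RNA, rose by 3.28 (SE 0.200, edgeR adjusted p = 8.44e-12), from 9.71 ± 1.83 CPM (SD, n = 3) to 93.5 ± 3.96, and Unc93b1, which carries such receptors to endosomes, by 0.96 (SE 0.149, 1.41e-05). Cgas, the sensor of cytosolic DNA, fell by 2.15 (SE 0.340, edgeR adjusted p = 1.84e-05), from 11.7 to 2.84 CPM on average. The pDC level rests on few counts, so the size of this fall is uncertain. The kinases Tbk1 and Ikbke, which phosphorylate IRF3 and IRF7, had adjusted p-values of 0.584 and 0.353 across the 4 populations (edgeR). Their differences between pDCs and pre-cDCs were 0.14 and 0.84. Ikbke had few counts, with population means of 2.78 to 5.13 CPM, so its missing call says little.

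Of 8 genes of interferon receptors and ISGF3, 4 rose and 2 fell (median 0.425), beside 21.7% of all genes. Stat2, which pairs with IRF9, rose by 2.03 (SE 0.195, edgeR adjusted p = 7.88e-09), from 38.7 ± 12.4 to 157 ± 10.9 CPM, whereas Irf9 itself differed by 0.20 with an interval of -0.13 to 0.52. Ifnar1, a chain of the type I interferon receptor, rose by 1.45 (SE 0.160, edgeR adjusted p = 8.17e-08). Both chains of the interferon gamma receptor were lower in pDCs: Ifngr1 fell by 1.69 (SE 0.201, edgeR adjusted p = 2.71e-07) and Ifngr2 by 0.52 (SE 0.150, 0.00927). The call of Ifngr2 did not hold without lo-lo library 1, among 9 libraries whose removal ended it, without a filter on low counts (edgeR adjusted p = 0.0147), with only the 6 libraries compared (0.0397) or with only numbers 1 and 2 (0.0248).

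Of 10 binding partners and co-repressors, 2 rose and 2 fell (median -0.04), beside 21.7% of all genes. The ETS factors that recruit IRF4 to DNA moved apart: Spib, known for its part in pDC identity, rose by 2.40 (SE 0.159, edgeR adjusted p = 2.32e-11) from 90.4 ± 5.87 to 476 ± 68.5 CPM, and Spi1, which encodes PU.1, fell by 2.55 (SE 0.199, 2.61e-10) from 131 ± 21.4 to 21.7 ± 6.95. Batf3, an AP-1 partner of IRFs in the cDC1 branch, fell by 4.14 (SE 0.368, edgeR adjusted p = 2.13e-09), from 18.2 to 1.13 CPM on average. It had 3 counts or fewer in 5 libraries, so the size of its fall is uncertain (3.65 after thinning). Irf2bp2, a co-repressor that binds IRF2, rose by 1.15 (SE 0.166, edgeR adjusted p = 4.51e-06). Spib is also in the pDC marker list, Spi1 and Batf3 are in the cDC list. All 3 were among the factors that named the wells.

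Of 26 interferon-stimulated targets, 10 passed, beside 21.7% of all genes, and all 10 were higher. In all, 22 had a positive difference, with a median of 0.94. Some targets were barely counted, such as Cxcl10 (population means of 0.17 to 0.81 CPM) and Oas2 (0.82 to 1.97). Their signs enter this and the later tallies of targets like any other, though they carry little weight. The largest rises were those of Ifi44 (2.75, SE 0.461, edgeR adjusted p = 0.000692) and Oasl1 (2.55, SE 0.449, 0.000157), an inhibitor of Irf7 translation. The count was 6 without pDC library 2. From lo-lo to lo-hi cells only Bst2 of these targets passed (0.77, SE 0.165, edgeR adjusted p = 0.00268), beside 5.17% of all genes, although 23 of the 26 were higher and the median was 0.71 against 0.01 for all genes. That call was lost without lo-hi library 1 (edgeR adjusted p = 0.045), lo-hi library 2 (0.0209) or lo-lo library 3 (0.0348). Bst2 is also in the pDC marker list, and whether its rise is a response to interferon was not tested. With the block 5 of the 26 passed, beside 6.95% of all genes. Between lo-hi cells and pDCs 22 were higher, with a median of 0.39 against 0.03. The interferon genes themselves were barely counted: of the 7 with any count, the highest, Ifnk, had 17 counts over all 12 libraries and Ifnb1 had 4.

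**Figure D4:**
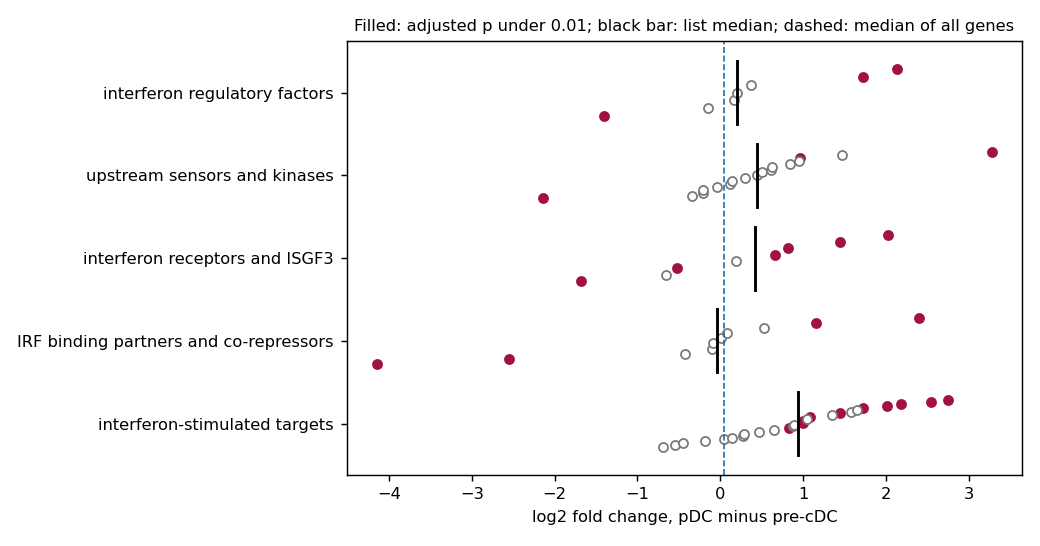
Log2 fold change of pDCs over pre-cDCs (horizontal axis) for the 7 IRF genes and the measured genes of the 4 pathway lists, 1 point a gene; filled points have an edgeR adjusted p under 0.01, black bars are list medians and the dashed line is the median of all genes (0.05). The filled IRF points are Irf7 (2.14), Irf1 (1.73) and Irf4 (-1.41), and no filled point of the interferon-stimulated targets lies below 0.

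The genes most alike in pattern to each called member were taken from 5478 genes with a mean of at least 20 CPM, by Pearson correlation of log2 CPM over the 12 libraries, which share populations and numbers. For Irf1 these were the predicted genes Gm21762 (r = 0.995) and Gm14207 (r = 0.990), for Irf7 the gene BC147527 (0.987) and the non-classical MHC class I gene H2-T22 (0.966), for Irf5 Vsir (0.933), which encodes the checkpoint protein VISTA, and the lectin gene Cd209a (0.928). For Irf4 they were the pseudogene Rps2-ps10 (0.906) and Svep1 (0.891). H2-T22 and Rps2-ps10 belong to families of near-identical sequences, so their counts are uncertain. Cd209a had the same dip as Irf5, at 422, 103, 168 and 237 CPM on average from pre-cDC to pDC.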

How the data were processed

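RNA of 12 sorted bulk samples of mouse bone marrow was measured by SCRB-seq. The authors ran zUMIs, in which STAR 2.5.2b placed reads on mm10 (GRCm38), and deposited raw integer counts for every gene in each well; whether these are reads or molecular identifiers is not given in the sources used here. Symbols came from GENCODE vM21 for 21410 of 21754 identifiers. Wells were named by the rank match given with the report, and the deposited labels served as an alternative. The 15293 genes whose counts averaged 1 or more were tested in edgeR 4.0.16 (R 4.3.3, TMM, robust quasi-likelihood test, no covariate), all 12 libraries sharing the estimate of the spread, with Benjamini-Hochberg adjustment over all genes and a threshold of 0.01, the level the study's methods use. Log2 CPM used a prior count of 2, intervals are 95%, and the fit was tested on simulated data. DESeq2 1.42.0 was an alternative to edgeR, and others changed scaling, filter, depth (all libraries thinned to 1801463 counts), block, threshold and libraries. The smallest library limits low genes, since 3 counts equal 1.67 CPM there.

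The replicate numbers of the match were taken to pair the libraries, because a legend of the study states that the populations were sorted from 3 individual mice, and number 3 has by far the highest Y-linked transcripts in all 4 populations. The methods instead describe marrow pooled from several mice, so what a number marks is not certain, and the sex-linked check was chosen after the data were seen. Some results with the block were known when the pairing was judged. Deviations from population means correlated at 0.118 on average over 18 pairs with the same number (range -0.15 to 0.309, 11 of them above 0.1). Over 36 pairs with different numbers the average was -0.0586 (range -0.323 to 0.257, 4 above 0.1). Deviations within a population cancel out, so the second average largely follows from the first and is not separate evidence. The pDC library of number 3 correlated at -0.15 with the pre-cDC, -0.0948 with the lo-lo and 0.0933 with the lo-hi library of that number. If libraries of a number do not come from separate animals, p-values cover only the spread between samples. The members and lists were chosen with earlier results of these data known. The 7 members analysed are named; of each list, the 2 genes with the largest called change in each direction, plus Stat2, Spi1, Spib and Batf3, are named, and 1 gene first put in a list is not reported here and was left out of its counts and median.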

Additional observations from a re-analysis of the deposited data

How the results depend on the processing

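The naming of the wells decided the result: with the deposited labels as groups the members called were 0 across the 4 populations and 0 in each of the 6 comparisons. The signs then turned for Irf3 (0.24), Irf4 (0.42), Irf5 (0.045), Irf7 (0.57) and Irf9 (0.028) in lo-lo minus pre-cDC, for Irf3 (-0.13), Irf4 (-0.55), Irf7 (-0.0896), Irf9 (-0.076), Batf3 (0.48) and Spi1 (0.069) in lo-hi minus lo-lo, and for Irf1 (-0.029), Irf2 (-0.099), Irf3 (-0.12), Irf5 (-0.27), Irf7 (-0.77) and Irf9 (-0.11) in pDC minus lo-hi. They also turned for Irf3 (-0.0135), Irf7 (-0.29), Irf9 (-0.16) and Oasl1 (-0.40) in pDC minus pre-cDC, for Irf2 (-0.18), Irf3 (-0.25), Irf5 (-0.16), Irf7 (-0.86) and Irf9 (-0.185) in pDC minus lo-lo, and for Irf5 (0.15) in lo-hi minus pre-cDC. Apart from the labels, no alternative turned the sign of a called member. The count of members called in lo-lo minus pre-cDC went from 0 to 1 with DESeq2, DESeq2 size factors or edgeR's own filter, to 2 without a filter, after thinning or with the replicate block, and to 3 at a threshold of 0.05. In lo-hi minus lo-lo it was 2 with the block, and with only numbers 1 and 2, a setting chosen after seeing the data, it stayed at 1, but the gene called was Irf7 and not Irf1. In pDC minus lo-lo it went from 2 to 3, with Irf5 added, with the block or with only numbers 1 and 2. In pDC minus lo-hi it was 1 with the block and 1 with only numbers 1 and 2. In lo-hi minus pre-cDC it went from 1 to 2 without a filter, at 0.05 or with only the 6 libraries compared, and to 3 with the block or with only numbers 1 and 2. The block changed no call of a member in pDC minus pre-cDC or across the 4 populations. Leaving out 1 library at a time gave 2 to 4 members across the populations, 0 to 1 in lo-lo minus pre-cDC, 0 to 1 in lo-hi minus lo-lo, 0 to 0 in pDC minus lo-hi, 2 to 3 in pDC minus pre-cDC, 1 to 3 in pDC minus lo-lo and 1 to 2 in lo-hi minus pre-cDC. Signs that turned in values that were not called were small. They were Irf7 0.0018 (lo-lo minus pre-cDC) and Irf2 0.0051 (lo-hi minus lo-lo) after thinning, and Irf2 and Irf3 in lo-hi minus pre-cDC with DESeq2 (-0.016 and -0.017), its size factors (-0.015 and -0.018), no filter (-0.015 and -0.019) and only the 6 libraries (-0.0067 and -0.0093). With only numbers 1 and 2 they were Irf7 0.054 (lo-lo minus pre-cDC), Irf3 -0.029 and Irf4 -0.077 (lo-hi minus lo-lo), Irf2 -0.043 (pDC minus lo-hi), Irf2 -0.062 and Irf5 0.041 (pDC minus pre-cDC), Irf2 -0.15 (pDC minus lo-lo), and Irf2 -0.019 and Irf3 -0.089 (lo-hi minus pre-cDC). With 1 library left out, Irf2 ran from -0.059 to 0.21, Irf3 from -0.14 to 0.0038 and Irf7 from -0.19 to 0.19 in lo-lo minus pre-cDC, Irf2 from -0.20 to 0.078, Irf4 from -0.079 to 0.35 and Irf9 from -0.0071 to 0.19 in lo-hi minus lo-lo, Irf2 from -0.078 to 0.22 in pDC minus lo-lo, and Irf2 from -0.14 to 0.11, Irf3 from -0.0901 to 0.037 and Irf9 from -0.16 to 0.034 in lo-hi minus pre-cDC. Over all genes, the calls in lo-lo minus pre-cDC were 483, against 733 without a filter, 743 with the block, 907 at 0.05 and 247 with numbers 1 and 2, and those in pDC minus lo-hi were 147, against 344, 346 and 327 under the first 3 of these. At 0.05 the calls went from 790 to 1321 in lo-hi minus lo-lo, from 2108 to 3332 in pDC minus lo-lo and from 2001 to 3063 in lo-hi minus pre-cDC, and with only the 6 libraries compared lo-hi minus lo-lo gave 1191. Leaving out 1 library lowered the calls to 280, 303 and 302 in lo-lo minus pre-cDC (pre-cDC 1, lo-lo 1, pre-cDC 3), to 381, 513 and 485 in lo-hi minus lo-lo (lo-hi 1, lo-hi 2, lo-lo 3) and to 89, 74 and 65 in pDC minus lo-hi (pDC 1, pDC 2, lo-hi 3). Where a value changed, the cause was not tested. Irf4, with 17 to 72 counts per library, is the member with the fewest counts.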

Other observations

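Irf7 was lowest in number 3 in all 4 populations, and most interferon-stimulated targets were lower there too. The Irf7 level of number 3 was 0.725 times the mean of numbers 1 and 2 in pre-cDCs, 0.626 in lo-lo cells, 0.524 in lo-hi cells and 0.448 in pDCs. Of the 26 interferon-stimulated targets, 24, 23, 25 and 20 were lower in number 3 than the mean of numbers 1 and 2 on the log2 scale in the same order, with medians of -0.64, -0.50, -0.69 and -0.45 against -0.01, 0.01, -0.01 and -0.02 for all genes. Their summed level in pDCs was 2860, 2820 and 2250 CPM in numbers 1, 2 and 3, of which Bst2 alone gave 2011, 1900 and 1509. Number 3 is also the one with the highest Y-linked and the lowest Xist levels, so sex, animal and any handling that went with the number cannot be told apart, and with 1 such number no test was made.

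Other members did not follow the number in the same way. Irf1 of number 3 was 0.884, 0.772, 1.02 and 0.885 times the mean of the other two from pre-cDC to pDC, and Irf5 of number 3 was 1.30, 1.25, 0.993 and 0.817 times it. Irf4 of number 3 was 0.465 times the mean of the other two in pre-cDCs and 0.948 times it in lo-hi cells.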
